A study of Mus musculus with 4 samples.

Results

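Toll-like receptors, their co-receptors and the proteins that pass on their signal were followed in differentiated 3T3-F442A adipocytes, mouse preadipocytes that can be turned into fat cells. The set was every probe set, the group of short probes that reads 1 transcript on the array, whose platform annotation names exactly 1 gene, that gene being Tlr2, Tlr3, Tlr4, Tlr6, Cd14, Ly96, Myd88, Irak1, Irak4 or Traf6. This gave 16 of the 22626 probe sets, for 9 of the 10 genes. No probe set met the rule for Irak4, which is not analysed here. All 4 arrays came from cells infected as preadipocytes with a retrovirus that carries a short hairpin RNA, kept for 2 days in puromycin (2 ug/ml) to select infected cells, and differentiated at confluence with 850 nM insulin for 8 days, the first 2 of them with rosiglitazone. The 2 arrays labelled shGFP carry the control hairpin and the 2 labelled shTRPV4 the hairpin against the calcium-permeable channel Trpv4. The labels do not say whether the selected cells were a pool or a clone, nor whether the replicates were separate infections or cultures. If they were not, the p-values measure only array-to-array spread of a technical kind.

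Toll-like receptors sense microbial molecules. TLR2 pairs with TLR6 or TLR1 at the cell surface to bind bacterial lipoproteins, TLR4 binds lipopolysaccharide with its partner MD-2 (Ly96) after CD14 hands the ligand over, and TLR3 binds double-stranded RNA inside endosomes. All of them except TLR3 signal through the adaptor MyD88, which recruits the kinases IRAK4 and IRAK1 and then the ubiquitin ligase TRAF6, a route that ends in NF-kappaB activation. Fat cells and their precursors are known to respond to Toll ligands with cytokine and chemokine production.

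Among the 16 probe sets 7 fell, 0 rose and 9 did not pass in the arrays labelled shTRPV4. "Passed" means a Benjamini-Hochberg adjusted p under 0.05 from limma over all 22626 probe sets, of which 5.36% fell and 4.54% rose. That split of 1213 lower and 1027 higher was 1161 and 600 without normalization and 1141 and 1662 with median centring. At an unadjusted p under 0.05, 8 of the 16 were lower, against 14.3% of all probe sets, and 2 were higher, against 16.3%, so the count of higher members is near the background. The 7 belong to 4 genes: Tlr2, Tlr3 on 1 of its 2 probe sets, Cd14, and Irak1 on all 4 of its probe sets. With 1 probe set per gene, the brightest, 4 of 9 genes fell against 6.00% of 12393 genes, and 0 rose against 5.33%. In deposited intensities, before normalization, both shTRPV4 arrays lay below both shGFP arrays for 9 of the 16, against 30.3% of all probe sets. They lay above them for 4, against 26.2%. The median deposited intensity was also lower on both shTRPV4 arrays than on both shGFP arrays. The median difference over the 16 probe sets was −0.38, beside 0.015 over all probe sets. Differences are arrays labelled shTRPV4 minus arrays labelled shGFP of quantile-normalized log2(intensity + 16), a scale that understates changes of dim probe sets.

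**Figure D1:**
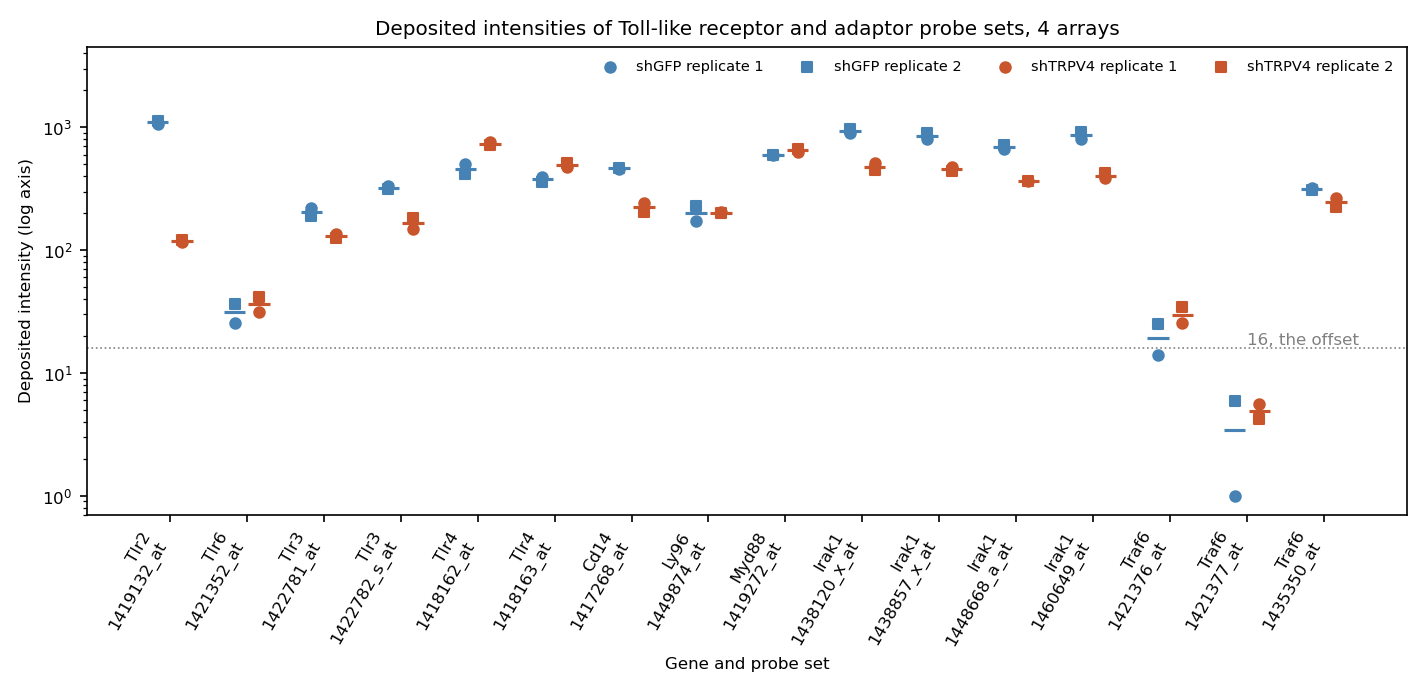
Deposited intensity (log axis) of each of the 16 probe sets on each of the 4 arrays; circles are replicate 1, squares replicate 2, and short bars the mean of each group of 2 arrays. Tlr2, Tlr3, Cd14, the 4 Irak1 probe sets and Traf6 1435350_at are lower on both arrays labelled shTRPV4. Both Tlr4 probe sets, Myd88 and Traf6 1421376_at are higher on them. The dotted line marks the offset of 16.

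The targeted transcript does not check the labels here. Trpv4 (1417545_at) had intensities of 43.7 and 93.8 under the shGFP label and of 80.1 and 79.5 under the shTRPV4 label. The groups overlapped, and the difference of 0.32 (95% interval −0.55 to 1.19, limma adjusted p = 0.550) has no settled sign, being −0.093 without shGFP replicate 1. The groups are therefore named by their labels. The 4 arrays had median intensities from 129.4 to 144.0. The adipocyte markers Fabp4 (18222 and 18099 in shGFP, 19142 and 19625 in shTRPV4), the fatty acid carrier of fat cells, and Adipoq (11785 and 11816, then 13294 and 14169), which encodes adiponectin, were bright in both groups.

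To show the control regions of members that fell, with Myd88 beside them as a member that did not pass, the 250 bases before the annotated start are given here 5′ to 3′, from RefSeq's table for GRCm38.p6. Of the 10 genes 7 had an entry among the promoter entries used here. Tlr4, Cd14 and Ly96 had none among those searched, so Cd14, which fell, is not shown. Whether the full table holds entries for these genes was not tested. Capitals mark matches, on either strand, to a loose NF-kappaB motif (GGG, any 5 bases, CC), an interferon-stimulated response element (GAAA, any 2 bases, GAAA) or a STAT-type GAS element (TTCNNNGAA, where N is any base). Matches may overlap.
Tlr2, chr3:83841609-83841858, minus strand: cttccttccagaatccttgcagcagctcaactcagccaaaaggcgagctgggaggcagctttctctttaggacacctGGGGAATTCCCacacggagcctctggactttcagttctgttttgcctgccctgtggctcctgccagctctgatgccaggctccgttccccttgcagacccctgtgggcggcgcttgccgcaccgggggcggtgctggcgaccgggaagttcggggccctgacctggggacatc
Tlr3, chr8:45410381-45410630, minus strand: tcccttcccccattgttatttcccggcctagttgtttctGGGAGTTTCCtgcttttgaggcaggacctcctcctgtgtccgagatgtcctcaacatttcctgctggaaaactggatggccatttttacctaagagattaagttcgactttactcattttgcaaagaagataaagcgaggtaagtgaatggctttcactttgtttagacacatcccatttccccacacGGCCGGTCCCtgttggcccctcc
Irak1, chrX:74023922-74024171, minus strand: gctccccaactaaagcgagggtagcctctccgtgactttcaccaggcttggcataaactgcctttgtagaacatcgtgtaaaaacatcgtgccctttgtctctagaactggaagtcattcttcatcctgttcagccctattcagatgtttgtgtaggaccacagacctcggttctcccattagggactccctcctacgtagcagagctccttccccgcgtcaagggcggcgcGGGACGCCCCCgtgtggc
Myd88, chr9:119340019-119340268, minus strand: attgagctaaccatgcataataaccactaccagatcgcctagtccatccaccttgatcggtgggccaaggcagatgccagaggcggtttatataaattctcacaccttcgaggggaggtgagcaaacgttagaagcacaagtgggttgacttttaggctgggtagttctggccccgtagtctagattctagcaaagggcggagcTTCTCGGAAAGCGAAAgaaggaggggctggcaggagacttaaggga
In Tlr2 the capitals are 2 overlapping NF-kappaB matches from −173 to −163 relative to the start. Tlr3 has 2 such matches, from −211 to −202 and from −23 to −14, and Irak1 has 2 overlapping ones from −18 to −8. Of all 32851 promoter entries, with no chromosome left out, 45.8% hold a match to that loose motif, so its presence sets none of these genes apart. Members that did not pass hold it too, in Traf6 and at the second of the annotated Tlr6 starts. The Myd88 stretch holds an interferon element from −40 to −31, a motif found in 2.98% of entries, overlapping a GAS element from −46 to −38, found in 7.02%. Tlr6, which did not pass either, has 2 overlapping interferon element matches before its other start. A match of letters is a description and not a measured binding site.

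The surface receptor Tlr2 had the widest difference of the 16 probe sets. Its single probe set (1419132_at, gene ID 24088) had intensities of 1069.8 and 1133 under the shGFP label, and of 117 and 120.2 under the shTRPV4 label. Both shTRPV4 arrays lay far below both shGFP arrays, and the replicates of each group were close. The fall was 7.96-fold on the log2(intensity + 16) scale (−2.99, SE 0.061, 95% interval −3.17 to −2.82, limma adjusted p = 0.0147).

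Tlr6, the partner of TLR2 for diacylated lipoproteins, did not pass. It read 25.7 and 36.6 in shGFP and 31.6 and 41.8 in shTRPV4, a difference of 0.20 (95% interval −0.29 to 0.69, adjusted p = 0.504). The groups overlapped, and at these low readings the interval still allows a difference of 0.69. Tlr1, the partner for triacylated lipoproteins, fell from 21.5 and 17.3 to 8.23 and 7.10 (−0.57, SE 0.090, adjusted p = 0.0446). Its readings lie around or below the offset of 16, and the call was lost with an offset of 1 or 64 and with median centring.

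The endosomal receptor Tlr3 was lower on both of its probe sets, with a call on 1. Probe set 1422782_s_at, of a kind that can read several related transcripts, went from 330.0 and 315.2 to 149.8 and 181 (−0.84, SE 0.11, 95% interval −1.14 to −0.54, adjusted p = 0.0324). Probe set 1422781_at went from 218 and 188 to 134 and 127 (−0.50, SE 0.12, 95% interval −0.85 to −0.15, adjusted p = 0.0888). This probe set passed under 2 of the 7 alternatives that keep all 4 arrays and no block, those without dim probe sets. On both, each shTRPV4 array was below each shGFP array, a pattern held by 30.3% of all probe sets, and the intervals of the probe sets overlap. Their average fell by 0.67 on the log2 scale (adjusted p = 0.0304).

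The lipopolysaccharide receptor Tlr4 had positive differences on both of its probe sets, and neither passed. Probe set 1418162_at read 502 and 420.3 in shGFP and 754 and 717 in shTRPV4 (0.71, SE 0.14, 95% interval 0.31 to 1.10, adjusted p = 0.0629). Probe set 1418163_at read 395 and 357 in shGFP and 479 and 509.6 in shTRPV4 (0.44, SE 0.10, 95% interval 0.15 to 0.72, adjusted p = 0.0800). On each, both shTRPV4 arrays were above both shGFP arrays, a pattern held by 26.2% of all probe sets. The average of the probe sets differed by 0.57 (95% interval 0.26 to 0.89, adjusted p = 0.0538). The difference was positive under every alternative run. The first probe set passed under 5 and the second under 4 of the 7 alternatives that keep all 4 arrays and no block.

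Of the co-receptors, Cd14 fell and Ly96 did not pass. Cd14 (1417268_at), the lipopolysaccharide carrier at the cell surface, read 461 and 469.8 in shGFP and 242 and 204 in shTRPV4. The groups were well apart, at a 1.94-fold fall (−0.96, SE 0.12, 95% interval −1.30 to −0.62, adjusted p = 0.0324). Ly96 (1449874_at), which encodes MD-2, read 173 and 231 in shGFP and 203 and 199 in shTRPV4. Both shTRPV4 readings lay between the shGFP readings (0.071, 95% interval −0.30 to 0.45, adjusted p = 0.768).

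The kinase Irak1 was lower on each of its 4 probe sets. Probe set 1460649_at read 806 and 917 in shGFP and 386 and 422 in shTRPV4 (−1.02, SE 0.078, 95% interval −1.24 to −0.80, adjusted p = 0.0182), a 2.03-fold fall. Probe set 1448668_a_at read 666 and 722 against 367 and 367 (−0.84, SE 0.065, adjusted p = 0.0183). The other two, whose _x_at suffix marks probes that can also read unrelated transcripts, behaved in the same way. Probe set 1438120_x_at read 899.5 and 971 against 512 and 447 (−0.91, SE 0.10, adjusted p = 0.0280). Probe set 1438857_x_at read 803 and 894 against 475 and 445 (−0.82, SE 0.083, adjusted p = 0.0239). On all 4 every shTRPV4 array was below every shGFP array, a pattern held by 30.3% of all probe sets. The 95% intervals of the 4 overlapped one another. These probe sets share 1 gene and are not independent replicates. Their average fell by 0.90 on the log2 scale (adjusted p = 0.0121).

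Myd88 (1419272_at), the adaptor upstream of IRAK1, did not pass. It read 597 and 597 in shGFP and 632 and 663 in shTRPV4, with a difference of 0.16 (SE 0.068, 95% interval −0.036 to 0.35, adjusted p = 0.228). The interval holds no fall as large as any called above. Traf6, the ubiquitin ligase downstream of IRAK1, gave no call, and its probe sets differed in sign. The brightest, 1435350_at, read 319 and 306 in shGFP and 267 and 226 in shTRPV4 (−0.27, 95% interval −0.61 to 0.083, adjusted p = 0.249). Probe set 1421376_at read 13.9 and 24.9 against 25.5 and 34.3 (0.41, 95% interval −0.17 to 0.99, adjusted p = 0.280), and 1421377_at read 1 and 5.91 against 5.61 and 4.25, all below the offset (0.12, adjusted p = 0.644). A reading of 1 is the lowest value in the deposited table.

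**Figure D2:**
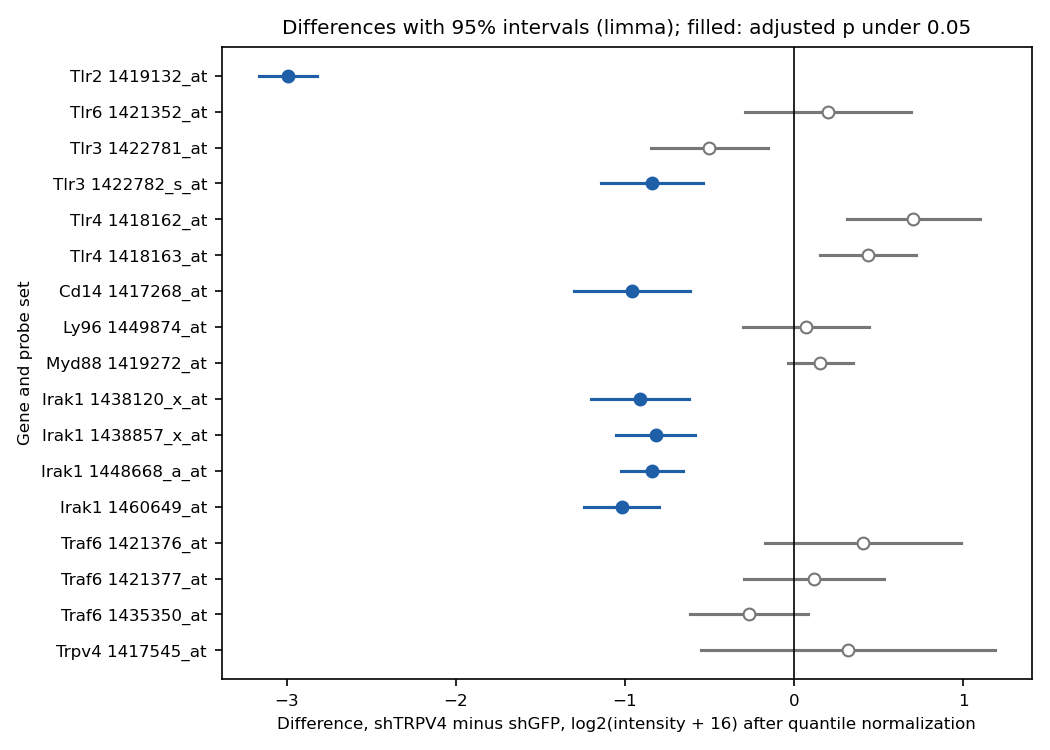
Difference of each probe set with its 95% interval from limma, of quantile-normalized log2(intensity + 16), for the 16 probe sets and Trpv4; filled points passed at an adjusted p under 0.05. Tlr2 stands at −2.99, the other 6 called probe sets lie between −1.02 and −0.82, and the Tlr4 intervals lie above 0 without a call.

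These calls need all 4 arrays. With any 1 array left out, which leaves 1 residual degree of freedom, limma called 0 of the 16 and 0 of all probe sets, with 7 or 8 of the 16 lower and 0 to 3 higher at an unadjusted p under 0.05; the same fits had 2263 to 2787 lower and 2236 to 3126 higher of all 22626. With an offset of 1 before the logarithm, 3 of the 7 calls were kept (Tlr2 and the Irak1 probe sets 1460649_at and 1448668_a_at), while Tlr3, Cd14 and both _x_at probe sets of Irak1 had adjusted p from 0.0537 to 0.0655.

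**Figure D3:**
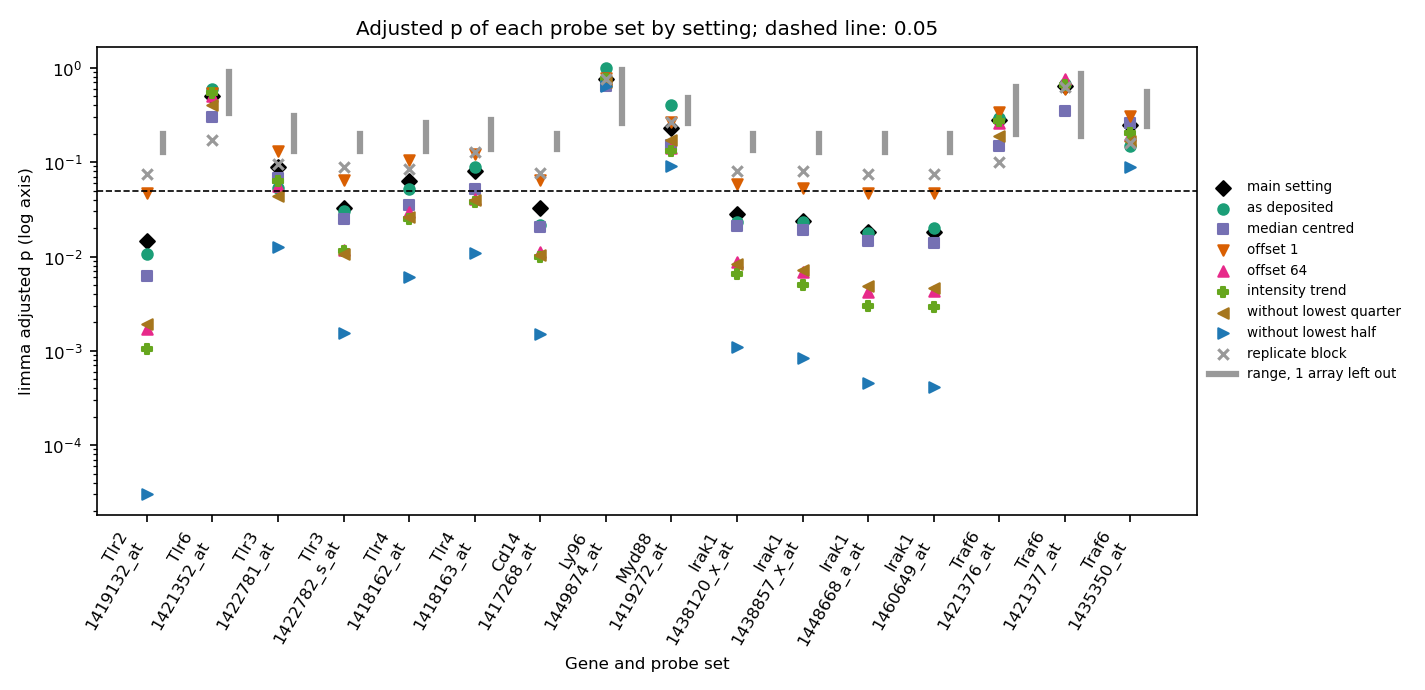
limma adjusted p (log axis) of each of the 16 probe sets under the setting used in the text and each alternative, with the dashed line at 0.05; grey bars give the range over the 4 fits that leave out 1 array. Tlr2 and the Irak1 probe sets 1448668_a_at and 1460649_at stay under the line in every setting with all 4 arrays and no block, and all grey bars and the replicate block lie above it.

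Other receptors and the proteins that deliver or fold them were mostly without a call. Of 13 such genes measured (of 17 listed), 2 fell, 1 rose and 10 did not pass, against 6.00% and 5.33% of all genes, with a median of 0.099 beside 0.023 over all genes. At an unadjusted p under 0.05, 2 were lower and 2 higher, where over all genes 15.2% were lower and 17.9% higher. Tlr1 fell as given above. Lbp, the secreted protein that brings lipopolysaccharide to CD14, went from 715 and 738 to 66.9 and 62.5 (−3.14, SE 0.069, adjusted p = 0.0147). Cnpy3, a chaperone of Toll-like receptors, rose from 126 and 121 to 159 and 170.5 (0.45, SE 0.073, adjusted p = 0.0456), no longer called when deposited values were not normalized. Hsp90b1, the endoplasmic reticulum chaperone of these receptors, differed by 0.017 (95% interval −0.18 to 0.22), and Cd36, a lipid scavenger receptor that works with TLR2, by 0.099 (−0.25 to 0.45).

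Other proximal signalling genes showed 1 fall and 3 rises among 14 measured of 19 listed, with 10 not passing and a median of 0.16. Over all genes 6.00% fell and 5.33% rose, so the 1 fall is near the background. At an unadjusted p under 0.05, 1 was lower and 5 higher, beside 15.2% and 17.9% of all genes. Tirap, the bridging adaptor that brings MyD88 to TLR2 and TLR4, fell from 201 and 190.5 to 108 and 99.5 (−0.74, SE 0.096, adjusted p = 0.0335). Its dimmer probe set 1418685_at did not pass (−0.57, adjusted p = 0.0752). The genes that rose were Ecsit, a TRAF6-binding protein (from 269 and 271 to 373 and 370.3; 0.50, SE 0.068, adjusted p = 0.0351), Peli2, a ubiquitin ligase of IRAK complexes (0.61, adjusted p = 0.0488), and Tab1, a partner of the kinase TAK1 (0.43, adjusted p = 0.0458). The calls for Peli2 and Tab1 did not hold for deposited values left unnormalized, and that for Tab1 also not with an intensity trend (adjusted p = 0.0774). Tab2 (0.15), Ube2v1 (0.013) and Tbk1 (−0.10), the brightest that did not pass, had adjusted p from 0.257 to 0.929.

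Genes that restrain the pathway included 5 that fell and 0 that rose among 12 measured of 16 listed, with 7 not passing and a median of −0.37. Over all genes 6.00% fell and 5.33% rose. At an unadjusted p under 0.05, 6 were lower and 2 higher, beside 15.2% and 17.9% of all genes. Tollip, which binds and holds back IRAK1, read 741 and 790.1 in shGFP and 376 and 377 in shTRPV4 (−0.94, SE 0.062, adjusted p = 0.0168). Its dimmer probe set 1423048_a_at differed by −0.046 (95% interval −0.40 to 0.31). Nfkbia, the inhibitor that NF-kappaB itself induces, fell on all 4 of its probe sets, on the brightest from 3803 and 4465 to 2077 and 2389 (−0.87, SE 0.10, adjusted p = 0.0285). Zc3h12a, an RNase that degrades cytokine transcripts, fell by 0.91 on the log2 scale (adjusted p = 0.0187). Atf3, a repressor of Toll target genes, fell by 0.81 (adjusted p = 0.0458; not called without normalization), and the deubiquitinase gene Otud7b by 0.58 (adjusted p = 0.0348).

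Interleukin-1 receptors use the same MyD88, IRAK and TRAF6 route. Of 6 measured (of 7 listed), 2 fell, 0 rose and 4 did not pass, with a median of −0.23 and 2 lower and 0 higher at an unadjusted p under 0.05. Over all genes 6.00% fell and 5.33% rose, with 15.2% lower and 17.9% higher on the unadjusted count. Il1r1, the signalling receptor, went from 1102 and 1077 to 755 and 789 (−0.46, SE 0.068, adjusted p = 0.0400; lost with median centring). Il1rap, its accessory chain, went from 621 and 541 to 273 and 262 (−1.01, SE 0.12, adjusted p = 0.0295). Of the further Il1rap probe sets, 1421843_at fell (−0.54) and 1449585_at did not pass (−0.46, adjusted p = 0.167).

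Among 9 measured of 10 listed genes whose products are reported as endogenous Toll ligands, 3 fell and 0 rose, with a median of −0.29 and 5 lower and 0 higher at an unadjusted p under 0.05. These were Saa3 (−5.26), an acute phase serum amyloid, the calcium-binding protein gene S100a8 (from 1958 and 2116 to 1010.1 and 987; −0.99, SE 0.072, adjusted p = 0.0174) and Dcn (−1.68), a small proteoglycan. Bgn (−0.17), Fn1 (−0.10) and Vcan (−0.29), matrix genes, did not pass on their brightest probe sets. Both other Bgn probe sets and 1 of 2 other Vcan probe sets fell, and with probe sets averaged Vcan passed (−0.42, adjusted p = 0.0365) while Bgn did not (−0.31, adjusted p = 0.0505). Beside this ligand list and the next list, 6.00% of all genes fell and 5.33% rose. On the unadjusted count, 15.2% of all genes were lower and 17.9% higher. Of 14 classic response genes, 7 fell, 0 rose and 7 did not pass, with a median of −1.13 and 8 lower and 0 higher at an unadjusted p under 0.05. Those that fell were Cxcl10 (−3.03), Cxcl1 (−2.65), Il6 (−2.62), Ccl2 (−2.19), Ptgs2 (−1.58), Ccl5 (−1.55) and Vcam1 (−1.04). They encode chemokines, interleukin-6, the inducible cyclooxygenase and a leukocyte adhesion molecule. With an offset of 1 the calls for Cxcl10 (adjusted p = 0.0631) and Ptgs2 (0.0604) were lost, and Ptgs2 also did not pass with its probe sets averaged (0.0763). Csf3, at 51.5 and 29.4 in shGFP and 41.9 and 58.7 in shTRPV4, was the brightest that did not pass. It differed by 0.29 (95% interval −0.43 to 1.02). Tnf, at 49.1 and 35.5 in shGFP and 24.9 and 28.9 in shTRPV4, differed by −0.40 (95% interval −0.82 to 0.015). For Ifnb1, at 17.7 and 26 against 34.7 and 24.8, the difference was 0.30 (−0.18 to 0.77). Over these 6 lists an offset of 1 ended 13 of the 24 calls. Beside Tlr1, Cxcl10 and Ptgs2 these were Cnpy3, Tirap, Tab1, Peli2, Ecsit, Otud7b, Nfkbia, Atf3, Il1r1 and Il1rap, all in the same direction as before.

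**Figure D4:**
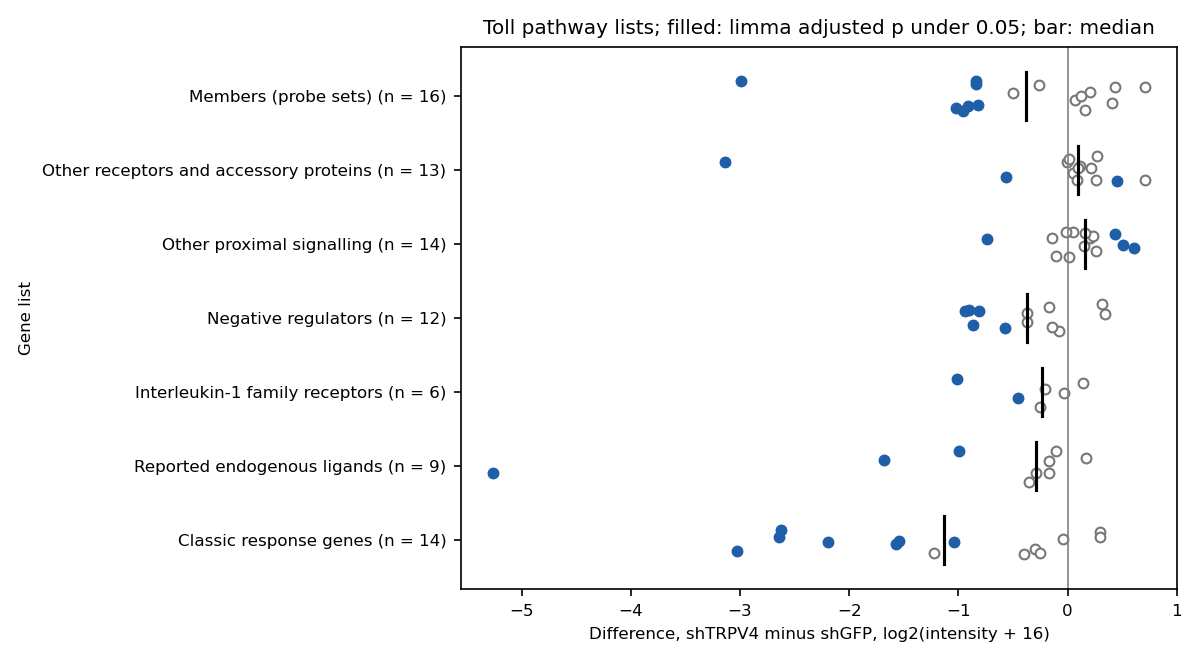
Differences (log2 scale) of the 16 probe sets and of the brightest probe set of each gene in 6 Toll pathway lists; filled points passed at a limma adjusted p under 0.05 and vertical bars are medians. The classic response genes have the lowest median (−1.13), and the other proximal signalling genes the highest (0.16).

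The profile of Tlr2 over the 4 arrays was also compared with every other named probe set, as the root mean square distance between log2 values centred on each probe set's mean. The nearest 5 were those of Lbp (0.0796), the neutrophil chemokine gene Cxcl5 (0.0970), Inhba (0.159), which encodes an activin subunit, the antiviral synthetase gene Oas1a (0.161) and the chemokine gene Cxcl1 (0.175). With 4 arrays in 2 groups this likeness mainly restates that each of them fell by a similar amount, from −3.14 to −2.65.

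Some markers of cell state moved in the same arrays. Beside each list below, 6.00% of all genes fell and 5.33% rose. At an unadjusted p under 0.05, 15.2% of all genes were lower and 17.9% higher. Of 10 adipocyte markers 5 rose, namely Pparg (0.45), Cebpa (0.88), Plin4 (0.53), Slc2a4 (1.16) and Retn (1.90), and Lep, which encodes leptin, fell (−1.77). The 10 had summed intensities of 56983 and 56636 in shGFP and 65628 and 69056 in shTRPV4. Among 11 markers of preadipocytes and fibroblasts, 7 fell (8 at an unadjusted p under 0.05) and 0 rose on either count, including Dcn, which is also in the ligand list, the growth factor receptor gene Pdgfra (−1.25), and the preadipocyte gene Dlk1 (−1.24). Cd34 (−1.07), Thy1 (−0.56), Lum (−2.28) and Sfrp2 (−2.35) fell too, and the list had sums of 72182 and 75050.0 against 60650.4 and 61998. Macrophages are rich in several of these receptors. Of 16 macrophage markers 2 fell (Lyz2, −1.89, and Csf1r, −0.85), 2 rose (Cd68, 1.49, and Cx3cr1, 1.19) and 12 did not pass, with 5 lower and 4 higher at an unadjusted p under 0.05. Csf1r and Cx3cr1 did not pass with their probe sets averaged. The summed intensity of the 16 ran from 711 to 822 in shGFP and from 668 to 690.4 in shTRPV4, 0 of them were brighter on average than the median probe set, 3 read under 16 on every array, and 0 read the minimum of 1 on any array. Of 5 endothelial markers 0 rose and 0 fell, with sums from 56.4 to 86.4 in shGFP and from 70.8 to 84.0 in shTRPV4 (2 higher and 0 lower at an unadjusted p under 0.05). The part of these shifts in the Toll pathway results was not tested. In bulk RNA, fewer cells of a type and less RNA per cell cannot be told apart.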

How the data were processed

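The RNA of 4 samples was labelled with biotin and put on Affymetrix mouse arrays, as the labels' protocols say. The deposited table gives a linear intensity for each probe set on each array. How the authors had summarised and scaled it, and any background step, was not given in the sources used here. Detection calls were not used. Between 1.85% and 2.08% of the values per array equal 1. With 2 arrays per group, the number of arrays limits the precision, and an exact permutation test could not go below p = 0.333.

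Intensities were taken as log2(intensity + 16). The array medians spanned 0.138 on that scale, above the limit of 0.1 set for using deposited values as they are, so quantile normalization was applied. All 22626 probe sets entered limma 3.58.1 under R 4.3.3 (lmFit, eBayes without an intensity trend, 2 residual and 1.80 prior degrees of freedom). The step was tested on simulated data. Of the probe sets, 20380 had 1 gene symbol, 691 several and 1555 none here; 20351 gene IDs matched RefSeq's GRCm38.p6 table, which changed 0 symbols. No set test and no p adjusted over the members alone was made. List genes were represented by their brightest probe set over the 4 arrays; every gene of a list that passed was named, and at most 3 of those that did not. The members and lists were chosen with earlier results of these data known. Alternatives were deposited values left as they are, median centring, offsets of 1 and 64, an intensity trend, 2 filters on dim probe sets, averaged probe sets, a replicate block and each array left out. Replicate numbers 1 and 2 occur in both groups, but nothing in the labels pairs them.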

Additional observations from a re-analysis of the deposited data

How the results depend on the processing

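Directions of the 7 called probe sets (Tlr2, Tlr3 1422782_s_at, Cd14 and the 4 of Irak1) and of both Tlr4 probe sets were the same under every alternative run. The sign turned without shGFP replicate 1 for Trpv4 (−0.093; 0.73 without shGFP replicate 2), Ly96 (−0.084; up to 0.23) and Traf6 1421377_at (−0.059; up to 0.30), and for Traf6 with its probe sets averaged (0.088), an alternative chosen after seeing the data; none of these passed. With an offset of 1, 3 member probe sets were lower, and 1 was higher with median centring. With an offset of 64, an intensity trend, or probe sets under the 25th or 50th percentile left out, 2 were higher (Tlr4). Either of these filters on dim probe sets gave 8 lower, with Tlr3 1422781_at among them. Over all probe sets, the 1213 lower and 1027 higher became 426 and 180 with an offset of 1, 1986 and 2130 with 64, 1980 and 2170 with the trend, 1975 and 2084 without the lowest 25% and 2232 and 2642 without the lowest 50% (fewer probe sets tested). The split depended on scaling: 1161 lower and 600 higher as deposited, 1141 and 1662 with median centring. Of the Toll pathway genes, 20 fell and 4 rose; 11 and 0 did with an offset of 1, and 1 rose with the values as deposited. Of the 42 marker genes, 10 fell and 7 rose, and 1 rose with an offset of 1. Without the lowest 50%, only 18 marker genes were tested, of which 6 fell and 5 rose. With the replicate number as a block, or with any 1 array left out (each leaving 1 residual degree of freedom), limma called 0 for members, all probe sets, pathway genes and markers alike; at an unadjusted p under 0.05 the block had 9 member probe sets lower and 3 higher, and 3242 lower and 3616 higher in all. Deviations of same-numbered arrays from their group means correlated at 0.119 over probe sets. With only 2 pairs this value cannot tell paired from unpaired arrays. The numbers are not taken to pair the arrays because nothing in the labels does. Beyond what is stated, the causes of these shifts were not tested.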
